A study of Mus musculus with 6 samples.

Results

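The 44 collagen genes named on the array were described in tibialis anterior, a fast muscle of the shin, among 22180 genes in all. They are the genes whose platform symbol is Col, a number, a and a number, and where several probe sets named only that gene the brightest on average was used. All 44 were found, and 3 of them (Col1a2, Col5a1 and Col6a1) had 2 such probe sets. The samples came from male C57Bl/6 mice, 3 castrated and 3 sham-operated at 11 weeks of age, and were taken at 18 weeks of age, 7 weeks after surgery. The castrated samples are labelled refed and the sham samples fasted, so the effects of surgery and of feeding cannot be told apart. The series design describes an overnight fast, a 30 minute meal for some mice and a further 4 hours without food, whereas the protocol on each sample gives the meal to all mice. Values are log2 expression values, so a difference of 1 is a doubling of signal, and differences are castrated minus sham throughout.

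Collagens are proteins whose chains wind into a triple helix, built from repeats that begin with glycine, and they form the main fibres and sheets of the matrix between cells. Fibrillar collagens such as types I, III and V assemble into the rope-like fibres of tendon and of the connective tissue around muscle fibres. Type IV collagen forms the sheet of the basement membrane that wraps each muscle fibre and capillary. Fibril-associated collagens, known as FACITs, sit on the surface of fibres, and the remaining classes include the beaded filaments of type VI, the multiplexins, the transmembrane collagens and the network-forming types. In muscle the fibrillar chains are made mainly by fibroblasts and related mesenchymal cells. In whole muscle, fewer cells of a type and less RNA per cell cannot be told apart.

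The labelled tissue carried its markers. All 10 skeletal muscle markers lay above the median of all genes, among them Tnni2, fast troponin I, at 11.99 in castrated and 12.16 in sham samples and Myh4, a fast myosin heavy chain, at 13.57 in castrated and 13.55 in sham samples. Medians over all genes were between 5.41 and 5.47 on the castrated and between 5.40 and 5.43 on the sham arrays. Of the 44 collagen genes, 29 had a mean at or above the median of all genes and 15 below it. Whether the dim members were above background was not tested.

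No collagen gene passed the test across all genes, but most had a higher mean in castrated than in sham muscle, led by both chains of type I collagen and by the FACIT chain Col14a1. At a limma adjusted p under 0.05 the count was 0 of 44 collagen genes, where 0.0135% of all genes (3 of 22180) passed, and the smallest adjusted p of a collagen gene was 0.449, for Col14a1. The mean was higher in castrated samples for 33 collagen genes and lower for 11, against 48.5% of all genes higher. The median collagen difference was 0.087, and over all genes it was −0.0056. Among members whose mean over all 6 samples was at or above the all-gene median, 24 of 29 were higher in castrated muscle. Of all genes in that range 40.8% were. A gene high in 1 group can enter that range through that group. At an unadjusted limma p under 0.05 there were 4 of 44 collagen genes, where 7.13% of all genes passed: 4 higher (9.09%, against 3.62% of all genes) and 0 lower (against 3.51%). That count of 4 was 2 when castrated sample 1, castrated sample 2 or sham sample 3 was left out, and 8 when sham sample 1 was. Over all genes the same fits gave 1326, 1480, 1525 and 1488 genes in that order, against 1581 with all samples. The groups did not overlap for 4 members (against 12.8% of all genes), all higher in castrated muscle, or 9.09% against 5.73% of all genes, and for 0 lower, against 7.02%.

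**Figure D1:**
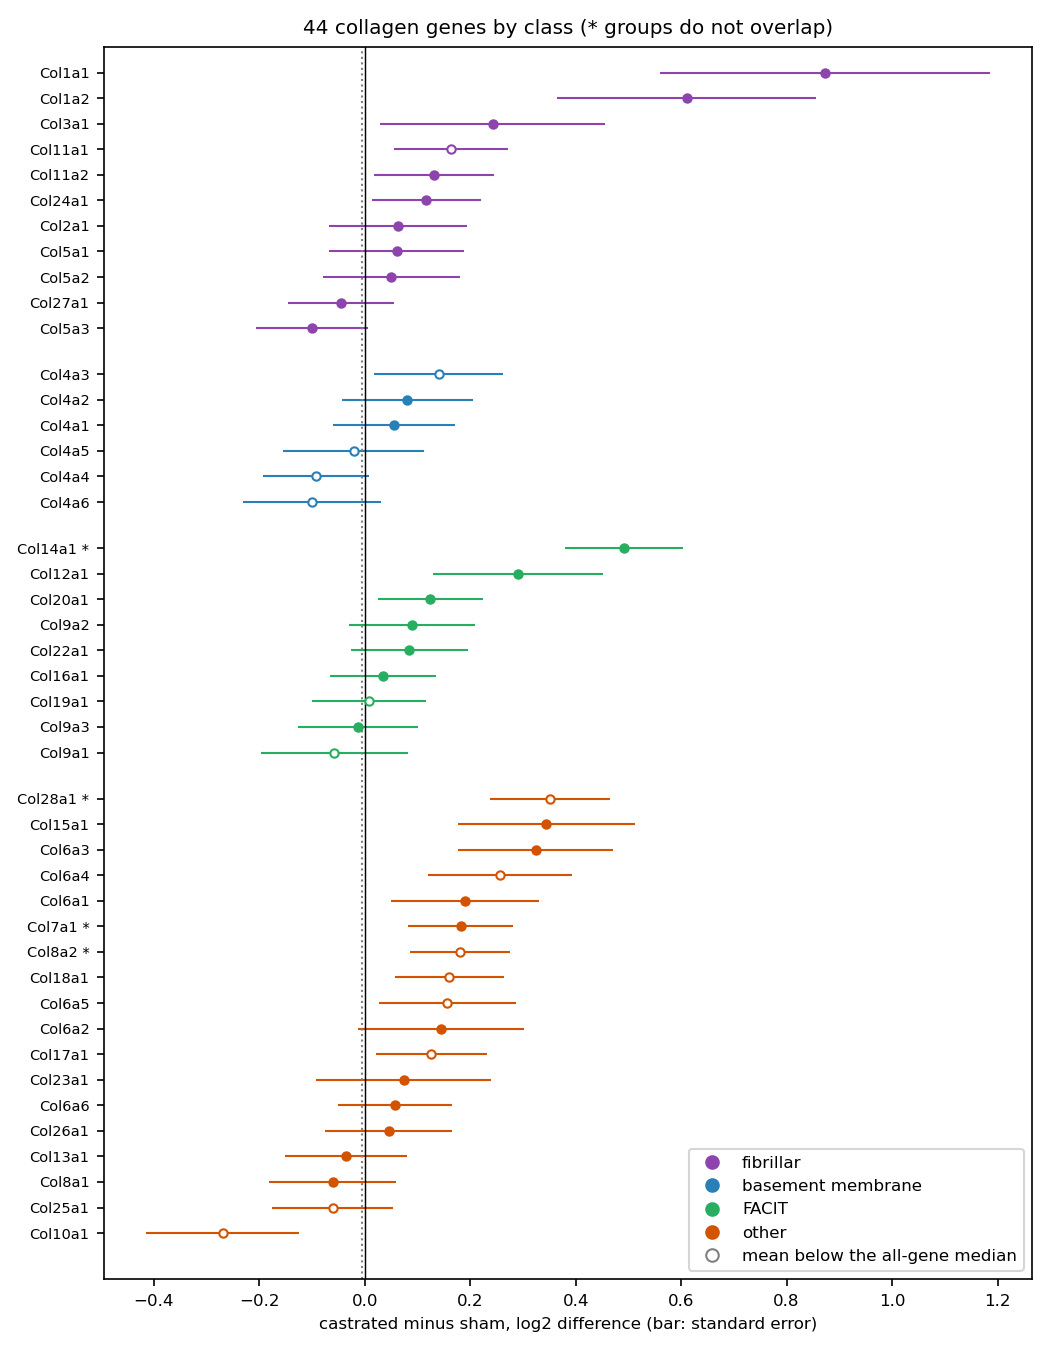
Log2 difference, castrated minus sham, of the 44 collagen genes by class, with the limma standard error as a bar, 3 samples per group. Open points have a mean below the all-gene median, a star marks groups that do not overlap, and the dotted line is the median of all genes at −0.0056. The largest differences were Col1a1 at 0.87 and Col1a2 at 0.61, and the most negative was Col10a1 at −0.27.

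Among the 11 fibrillar genes, the 2 chains of type I collagen, the main collagen of tendon and of muscle connective tissue, stood out from the others. Col1a1 (Entrez 12842), which supplies the alpha 1 chain, read 10.12, 9.75 and 8.94 in castrated samples 1, 2 and 3, against 9.23, 8.71 and 8.25 in sham samples 1, 2 and 3. Castrated samples 1 and 2 lay above all sham samples, while castrated sample 3 lay below sham sample 1. The means were 9.60 ± 0.61 in castrated and 8.73 ± 0.49 in sham muscle (SD, n = 3 each), a difference of 0.87 (standard error 0.31, 1.83-fold, limma adjusted p = 0.668).

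Col1a2 (Entrez 12843), the alpha 2 chain of the same molecule, read 9.63, 9.28 and 8.72 in castrated samples, against 8.92, 8.68 and 8.19 in sham samples. The array order was that of Col1a1, with castrated sample 3 again inside the sham range. The difference was 0.61 (standard error 0.25, 1.53-fold, limma adjusted p = 0.687), and it was 0.40 without castrated sample 1. A second, dimmer probe set of Col1a2 read 6.86, 6.70 and 5.88 in castrated samples, against 5.84, 5.75 and 4.91 in sham samples. On that probe set all castrated samples lay above all sham samples, and the difference was 0.98.

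Col3a1 (Entrez 12825), the type III chain that accompanies type I in soft connective tissue, read 8.44, 8.38 and 7.84 in castrated samples, against 8.34, 8.01 and 7.59 in sham samples. Its groups overlapped widely, with a difference of 0.24 (standard error 0.21, limma adjusted p = 0.848) that was 0.047 without sham sample 3 and 0.43 without castrated sample 3. Col1a1 minus Col3a1 within each array was 1.68, 1.36 and 1.09 in castrated samples, against 0.88, 0.70 and 0.67 in sham samples. These values did not overlap between groups, and the difference of Col1a1 exceeded that of Col3a1 by 0.63 (exact permutation test, two-sided p = 0.1, the smallest that 3 against 3 samples allow). Over the 7 pairs of chains compared in this way, the Benjamini-Hochberg adjusted p was 0.35, and this pair was chosen after its values were seen.

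Col1a2 and Col3a1 encode chains of fibres found side by side in muscle, and differed by 0.61 and 0.24. Whether these 2 amounts are unlike was not tested. The 250 bases upstream of their annotated starts are printed to set the sequence before these 2 genes side by side. They are RefSeq sequences on build GRCm38.p6, written 5′ to 3′ on the gene's strand and ending at the base before the start. Capitals mark matches, on either strand, to the motif CCAAT (reverse complement ATTGG), to the motif TATAA (reverse complement TTATA) or to the motif GGGCGG (reverse complement CCGCCC). The Col1a2 window is chr6:4505368-4505617 on the plus strand, and the Col3a1 window is chr1:45311288-45311537 on the plus strand.
Col1a2: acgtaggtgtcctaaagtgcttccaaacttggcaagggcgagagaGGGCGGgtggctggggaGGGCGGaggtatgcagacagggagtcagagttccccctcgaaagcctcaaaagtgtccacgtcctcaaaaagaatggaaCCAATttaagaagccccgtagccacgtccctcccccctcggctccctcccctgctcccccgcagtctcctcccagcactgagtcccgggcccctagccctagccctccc
Col3a1: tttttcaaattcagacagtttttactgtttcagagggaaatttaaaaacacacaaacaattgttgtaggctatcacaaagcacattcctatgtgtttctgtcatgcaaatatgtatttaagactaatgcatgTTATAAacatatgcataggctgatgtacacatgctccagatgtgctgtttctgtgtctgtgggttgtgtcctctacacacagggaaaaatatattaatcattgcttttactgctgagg
The Col1a2 window is 62.0% G and C and holds 2 matches to GGGCGG and 1 to CCAAT, whose first base lies 109 bases before the start. The Col3a1 window is 35.2% G and C, and its matches are TATAA and the reverse complement TTATA, which overlap. Windows were given for 35 of the 44 collagen genes, 38 windows in all. None was given for Col1a1, Col12a1 or Col14a1. GGGCGG on either strand was found in 57.9% of them and in 32.7% of the 32851 windows of all genes, while median G and C content was 59.0% and 52.4% in the same order. CCAAT was found in 34.2% of collagen windows and 33.8% of all windows, and TATAA in 18.4% and 22.8%. A match is a description of letters and not a site shown to be used.

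The minor fibrillar chains differed by little. Col5a1 (Entrez 12831), a chain of type V collagen, which helps to start type I fibres and sets their width, read 6.85, 6.75 and 6.73 in castrated samples, against 6.91, 6.78 and 6.46 in sham samples. Its difference was 0.06 (standard error 0.13), with the castrated values inside the sham range, and it was −0.065 without sham sample 3 and −0.057 on a second, dimmer probe set. Its partner Col5a2 differed by 0.05 and Col5a3 by −0.10. Col11a1 and Col11a2, type XI chains best known from cartilage, differed by 0.16 and 0.13, the cartilage collagen Col2a1 by 0.06, and the more distant fibrillar chains Col24a1 and Col27a1 by 0.12 and −0.05. In all, 9 of 11 fibrillar genes were higher in castrated muscle, with a median of 0.12. The groups did not overlap for 0 of the 11, against 12.8% of all genes. The median was 0.047 without sham sample 3 and 0.073 without castrated sample 1.

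**Figure D2:**
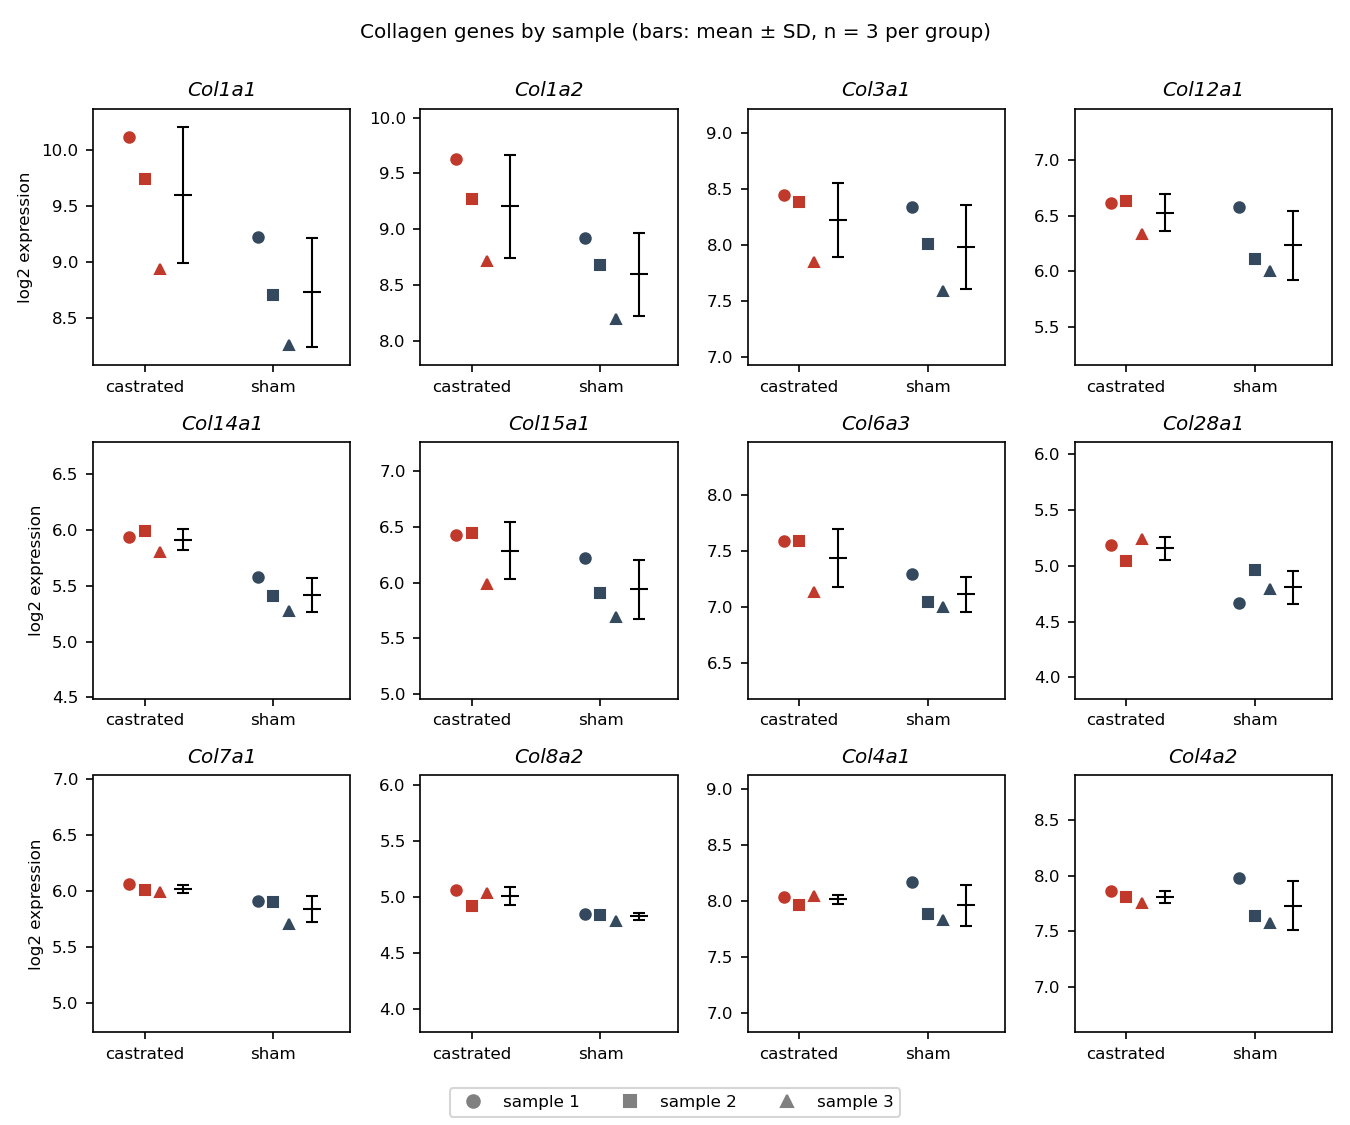
Log2 expression of 12 collagen genes in each sample, 3 castrated at left and 3 sham at right of each panel, with the mean and SD as a bar. Every panel spans the same number of log2 units. Castrated sample 3 reads 8.94 for Col1a1, below sham sample 1 at 9.23, whereas for Col14a1 all castrated samples lie at or above 5.81 and all sham samples at or below 5.57.

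The FACIT class was led by Col14a1 and Col12a1, closely related chains that bind the surface of type I fibres and are prominent in tendon and in muscle connective tissue. Col14a1 (Entrez 12818) read 5.93, 5.99 and 5.81 in castrated samples, against 5.57, 5.41 and 5.28 in sham samples. All castrated samples lay above all sham samples. The means were 5.91 ± 0.095 in castrated and 5.42 ± 0.15 in sham muscle (SD, n = 3 each), a difference of 0.49 (standard error 0.11, 1.41-fold). Its unadjusted limma p was 0.00183 and the limma adjusted p was 0.449. With a sample left out the difference stayed between 0.42 and 0.57. Sham samples 2 and 3 lay below the medians of all genes on their arrays, 5.43 and 5.40. The gene's mean lay above the all-gene median with the castrated samples counted.

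Col12a1 (Entrez 12816) read 6.61, 6.63 and 6.33 in castrated samples, against 6.58, 6.11 and 6.01 in sham samples. Sham sample 1 lay among the castrated samples, and the other 2 sham samples lay below them. The difference was 0.29 (standard error 0.16, limma adjusted p = 0.762), and it was 0.18 without sham sample 3 and 0.46 without sham sample 1. Col22a1 (Entrez 69700), a FACIT known from the junction between muscle and tendon, read 5.91, 5.78 and 6.08 in castrated samples, against 5.79, 5.95 and 5.79 in sham samples. These ranges overlapped, with a difference of 0.08 (standard error 0.11) that became 0.0084 with castrated sample 3 left out and 0.16 with castrated sample 2 left out.

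The other FACIT chains differed by less than 0.13 in size. Col20a1 differed by 0.12, the cartilage chains Col9a2, Col9a3 and Col9a1 by 0.09, −0.01 and −0.06, Col16a1 by 0.03 and Col19a1 by 0.01. Of the 9 genes of the class 7 were higher in castrated muscle, with a median of 0.085. Leaving out castrated sample 1 gave a median of 0.029, leaving out castrated sample 2 gave 0.16, and leaving out sham sample 2 gave 0.13.

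The basement membrane class had the smallest median difference of the classes, with as many genes higher as lower. Col4a1 (Entrez 12826), which with Col4a2 makes the type IV molecule found in nearly all basement membranes, read 8.03, 7.97 and 8.04 in castrated samples, against 8.17, 7.88 and 7.83 in sham samples. Col4a2 (Entrez 12827) read 7.87, 7.81 and 7.76 in castrated samples, against 7.98, 7.63 and 7.58 in sham samples. For both genes the castrated samples lay inside the sham range, and sham sample 1 was the highest of the 6. The differences were 0.06 (standard error 0.12) for Col4a1 and 0.08 (standard error 0.12) for Col4a2, and without sham sample 3 they were −0.011 and 0.0037. The 2 genes are neighbours on the chromosome, transcribed away from each other, and their 300-base promoter windows share 78 bases. Their gap within each array was 0.17, 0.16 and 0.29 in castrated samples, against 0.19, 0.25 and 0.25 in sham samples, with overlapping ranges.

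The chains of the tissue-restricted type IV networks, known best from kidney, had means below the all-gene median. Col4a3 (Entrez 12828) read 5.48, 5.16 and 5.23 in castrated samples, against 5.29, 5.01 and 5.15 in sham samples, a difference of 0.14 (standard error 0.12) that was 0.046 without castrated sample 1 and 0.21 without sham sample 1. Col4a6 (Entrez 94216) read 5.17, 4.86 and 5.11 in castrated samples, against 5.14, 5.34 and 4.97 in sham samples, a difference of −0.10 (standard error 0.13) that was −0.0046 without sham sample 2 and −0.19 without sham sample 3. Both overlapped between groups. Col4a4 and Col4a5 differed by −0.09 and −0.02. In the class 3 genes were higher and 3 lower, with a median of 0.017, which was −0.0035 without sham sample 3 and 0.066 without sham sample 1.

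All 6 chains of type VI collagen, the beaded filament that ties the muscle fibre's basement membrane to the surrounding matrix, had higher means in castrated muscle, though each overlapped between groups. Col6a3 (Entrez 12835) read 7.59, 7.59 and 7.14 in castrated samples, against 7.30, 7.05 and 7.00 in sham samples. Only castrated sample 3 lay within the sham range. The difference was 0.32 (standard error 0.15, 1.25-fold, limma adjusted p = 0.709). Col6a1 (Entrez 12833) read 8.41, 8.15 and 7.99 in castrated samples, against 8.20, 7.90 and 7.87 in sham samples, a difference of 0.19 (standard error 0.14) that was 0.079 without castrated sample 1 and 0.30 without sham sample 1. Its second probe set differed by 0.18.

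Col6a2 (Entrez 12834), the neighbour of Col6a1 on the chromosome, read 7.59, 7.36 and 7.26 in castrated samples, against 7.49, 7.35 and 6.93 in sham samples. Sham samples 1 and 2 lay inside the castrated range. The difference was 0.14 (standard error 0.16), and it was −0.017 without sham sample 3 and 0.26 without sham sample 1. Of the chains that can stand in for the alpha 3 chain, Col6a4 differed by 0.26, Col6a5 by 0.16 and Col6a6 by 0.06, and Col6a4 and Col6a5 had means below the all-gene median. Within arrays, Col6a3 minus Col6a1 was −0.82, −0.56 and −0.85 in castrated samples, against −0.91, −0.86 and −0.86 in sham samples, a difference of 0.13 (exact permutation test, two-sided p = 0.1, the smallest possible, Benjamini-Hochberg adjusted p = 0.35 over the 7 pairs).

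The multiplexins, which carry an endostatin domain at their end and lie in the basement membrane zone, were also higher on average. Col15a1 (Entrez 12819), found around capillaries and muscle fibres, read 6.43, 6.44 and 5.99 in castrated samples, against 6.22, 5.91 and 5.69 in sham samples. Castrated samples 1 and 2 were the highest of the 6, while castrated sample 3 lay below sham sample 1. The difference was 0.34 (standard error 0.17, limma adjusted p = 0.734), and it was 0.22 without sham sample 3. Col18a1 (Entrez 12822) read 5.54, 5.48 and 5.37 in castrated samples, against 5.40, 5.31 and 5.20 in sham samples, with a difference of 0.16 (standard error 0.10) and an overlap of castrated sample 3 with sham sample 1.

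Beside Col14a1, the members whose groups did not overlap were Col28a1, Col7a1 and Col8a2. Col28a1 (Entrez 213945), a chain with von Willebrand domains known from peripheral nerve, read 5.19, 5.04 and 5.24 in castrated samples, against 4.67, 4.97 and 4.79 in sham samples. The gap between the nearest castrated and sham samples was narrow. The difference was 0.35 (standard error 0.11, limma adjusted p = 0.658), and its mean lay below the all-gene median. The 250 bases before its annotated start, chr6:8192618-8192867 on the minus strand of GRCm38.p6, hold no match to the 3 motifs and are 40.4% G and C, shown here for comparison with Col1a2 on the same chromosome.
Col28a1: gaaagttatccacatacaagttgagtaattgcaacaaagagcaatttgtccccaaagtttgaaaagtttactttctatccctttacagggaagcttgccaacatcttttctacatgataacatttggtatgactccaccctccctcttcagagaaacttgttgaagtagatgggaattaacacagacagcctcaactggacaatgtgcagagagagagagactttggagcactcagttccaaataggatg
Of the 7 Schwann cell markers measured, 6 were higher in castrated muscle, with a median of 0.091. Their summed linear signal was 446 to 516 in castrated and 422 to 452 in sham samples, and their part in the Col28a1 value was not tested.

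Col7a1 (Entrez 12836), the anchoring fibril chain of skin and other lined surfaces, read 6.06, 6.01 and 5.99 in castrated samples, against 5.91, 5.90 and 5.71 in sham samples. Its difference was 0.18 (standard error 0.10, limma adjusted p = 0.762), and it was 0.12 without sham sample 3. Col8a2 (Entrez 329941), a network-forming chain of the cornea and of vessel walls, read 5.07, 4.91 and 5.04 in castrated samples, against 4.85, 4.84 and 4.79 in sham samples. Its difference was also 0.18 (standard error 0.10, limma adjusted p = 0.751), with a mean below the all-gene median. In both genes all castrated samples lay above all sham samples by a small gap. Col8a1, the partner chain, differed by −0.06. Col10a1, the network-forming chain of growth cartilage, had the most negative difference of the family at −0.27 (standard error 0.15), or −0.43 without sham sample 1, and its mean lay below the all-gene median.

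The transmembrane collagens of the neuromuscular junction differed by less than the spread between samples. Col13a1 (Entrez 12817), needed for the maturation of that synapse, read 5.86, 5.84 and 5.87 in castrated samples, against 5.87, 6.10 and 5.72 in sham samples, a difference of −0.04 (standard error 0.12) that was 0.066 without sham sample 2. Col25a1 (Entrez 77018), needed for motor axons to enter muscle during development, read 5.13, 5.42 and 5.29 in castrated samples, against 5.38, 5.43 and 5.21 in sham samples, a difference of −0.06 (standard error 0.11) that was 0.015 without castrated sample 1. For both genes the groups overlapped. Col17a1, of the skin's anchoring complex, differed by 0.13, Col23a1 by 0.07 and Col26a1, which the class scheme leaves apart, by 0.05. Across the 18 genes outside the fibrillar, basement membrane and FACIT classes 14 were higher in castrated muscle, with a median of 0.15. The median was 0.073 without sham sample 3 and 0.076 without castrated sample 1.

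**Figure D3:**
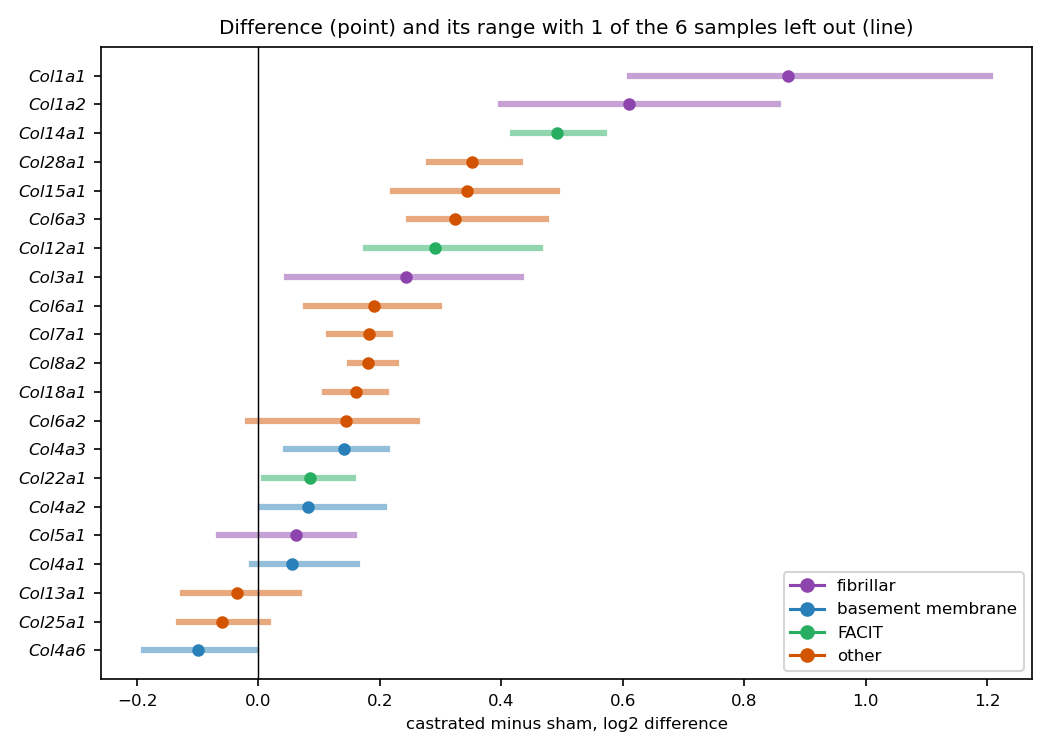
Log2 difference, castrated minus sham, of 21 collagen genes (points) and the range of that difference when each of the 6 samples is left out in turn (lines). The lines of Col1a1 (0.61 to 1.20), Col14a1 (0.42 to 0.57) and Col28a1 (0.28 to 0.43) stay well above 0, whereas those of Col4a1, Col5a1, Col6a2, Col13a1 and Col25a1 cross it.

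The spread between arrays of a group was shared across the family. Sham sample 3 was the lowest sham sample for 34 of 44 collagen genes, or 77.3%, against 36.0% of all genes, and sham sample 1 was the highest for 28, or 63.6%, against 32.1%. Castrated sample 1 was the highest castrated sample for 30, or 68.2%, against 34.0% of all genes. After centring every gene on its own mean, the 44 genes had a median of 0.16, −0.000029 and −0.020 in castrated samples 1, 2 and 3, against 0.043, −0.022 and −0.16 in sham samples 1, 2 and 3. Both castrated samples 2 and 3 therefore lay below sham sample 1. For the fibrillar class these medians were 0.18, 0.045 and −0.060 in castrated samples, against 0.056, −0.091 and −0.21 in sham samples. The count of collagen genes higher in castrated muscle was 29 with sham sample 3 left out and 30 with castrated sample 1 left out. Other omissions did not lower it: dropping sham sample 1 gave 36, dropping sham sample 2 gave 33, and dropping castrated sample 2 or 3 gave 34. With both sham sample 3 and castrated sample 1 left out it was 22 of 44. That pair was chosen after seeing the data. It joins the array most often lowest in sham to the one most often highest in castrated muscle. A lower count was therefore built in, no opposite pair was run, and no conclusion is drawn from it.

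As a set, tendon markers followed the same arrays. Of 11 markers 9 were higher in castrated muscle and 2 lower, with a median of 0.48. The 2 lower were the tendon factor Scx, by −0.043, and Prg4, by −0.39. Prg4 read 8.61, 8.10 and 7.63 in castrated samples, against 8.54, 8.46 and 8.51 in sham samples. Their centred medians were 0.40, 0.33 and −0.040 in castrated samples 1, 2 and 3, against 0.11, −0.17 and −0.58 in sham samples 1, 2 and 3, so sham sample 3 was the lowest here too. Their summed linear signal was 3022 to 3949 in castrated and 2108 to 3649 in sham samples, and 8 of 11 had means above the all-gene median. The tendon proteoglycan Kera read 6.99, 7.22 and 6.89 in castrated samples, against 6.44, 6.09 and 5.89 in sham samples, and the tendon factor Mkx read 5.55, 5.41 and 5.03 in castrated samples, against 4.89, 4.91 and 4.65 in sham samples. These 2 genes had the smallest p of the list, and neither passed the test over all genes (limma adjusted p = 0.373 for Kera and 0.596 for Mkx). Their groups did not overlap, as for 3 of the 11 markers and 12.8% of all genes. Brighter markers overlapped between groups and were smaller without sham sample 3. Thbs4 went from 0.37 to 0.099, Tnmd from 0.48 to 0.21, Chad from 0.66 to 0.37 and Fmod from 0.53 to 0.34. Kera was 0.77 without that sample. The part of the tendon markers in the collagen values was not tested.

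Markers of the muscle's resident fibroblast-like cells had a small negative median difference. Of 9 fibro-adipogenic progenitor markers measured, 2 were higher in castrated muscle and 7 lower, with a median of −0.042. All 9 had means at or above the all-gene median. Of all genes in that range 59.2% were lower, with a median of −0.030. Their centred medians were 0.064, 0.019 and −0.15 in castrated samples, against 0.20, −0.14 and −0.0029 in sham samples, and their summed linear signal was 5509 to 6342 in castrated and 5654 to 7213 in sham samples. Pi16, a marker of adventitial fibroblasts, differed by −0.49 and Gsn, gelsolin, by −0.28, without overlap between groups (limma adjusted p = 0.583 and 0.678). Of all genes 12.8% did not overlap. Pdgfra and Dpt differed by −0.22 and −0.13, and Osr1, Dcn and Cd34 by −0.042, −0.015 and −0.0089. The 2 higher markers, Clec3b and Lum, differed by 0.16 and 0.12. Medians were −0.038 for muscle, 0.031 for endothelial, 0.017 for pericyte and smooth muscle, 0.19 for adipocyte, −0.12 for macrophage and 0.030 for cartilage and bone markers.

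**Figure D4:**
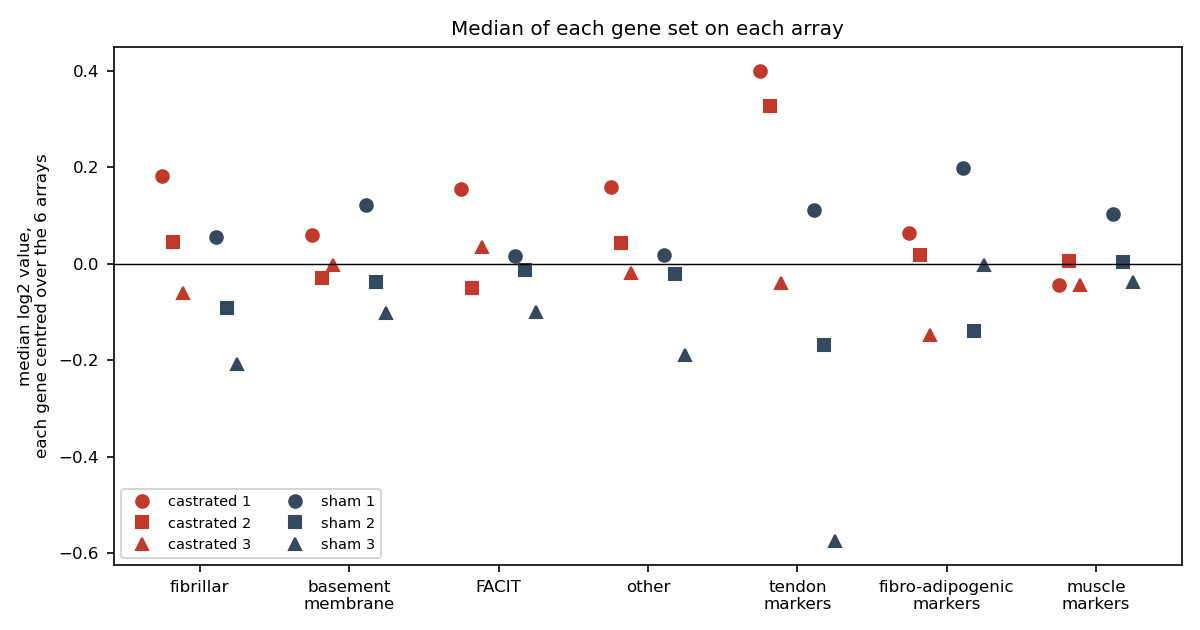
Median log2 value of each collagen class and of 3 marker sets on each array, with each gene centred on its mean over the 6 arrays, castrated arrays in red at left and sham arrays in dark grey at right of each set. Sham sample 3 is lowest for the fibrillar genes (−0.21), FACIT (−0.099), the other classes (−0.19), the basement membrane genes (−0.10) and the tendon markers (−0.58). For the muscle markers it is the lowest sham sample at −0.038, against 0.10 and 0.0039 in sham samples 1 and 2. Castrated samples 1 and 3 lie just below it there, both at −0.044. For the fibro-adipogenic markers it is not the lowest.

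Genes that make, export, link, sense and remove collagen were divided between higher and lower, and 0 passed the test over all genes. Of all genes 0.0135% passed it, 48.5% were higher and 51.5% lower, and the groups did not overlap for 12.8%. In the steps inside the cell, Serpinh1, the collagen chaperone HSP47, read 7.76, 8.20 and 7.52 in castrated samples, against 7.73, 7.49 and 7.12 in sham samples, a difference of 0.38 (standard error 0.20) with overlapping groups. Leaving out castrated sample 2 gave 0.19, and leaving out castrated sample 3 gave 0.53. Mia3, the export factor TANGO1, was lower without overlap, at 8.29, 8.44 and 8.47 in castrated samples, against 8.68, 8.60 and 8.62 in sham samples, a difference of −0.23 (standard error 0.098). Of 9 measured folding and export genes 4 were higher and 5 lower, with a median of −0.13. Of 13 hydroxylation and glycosylation genes 7 were higher and 6 lower, with a median of 0.0022, among them the prolyl 3-hydroxylase P3h2 at 0.33 (0.20 without sham sample 1) and the prolyl 4-hydroxylase subunit P4ha1 at 0.13 (0.042 without castrated sample 2).

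Among the enzymes that trim procollagen outside the cell, 5 of 7 measured were higher, with a median of 0.083. Bmp1, which removes the C-terminal propeptide, read 6.94, 7.01 and 7.08 in castrated samples, against 6.87, 6.83 and 6.54 in sham samples, a difference of 0.26 (standard error 0.12) without overlap, and Adamts3, which removes the N-terminal propeptide, differed by 0.36. Bmp1 differed by 0.16 without sham sample 3, and Adamts3 by 0.22 without castrated sample 2 and 0.58 without castrated sample 1. In the cross-linking list 4 of 5 measured genes were lower, with a median of −0.32. All 5 had means at or above the all-gene median. Of all genes in that range 59.2% were lower, and of all genes 51.5% were. Its lysyl oxidase-like gene Loxl1 read 6.77, 6.57 and 6.56 in castrated samples, against 7.16, 6.94 and 6.84 in sham samples, and differed by −0.34 (standard error 0.12, limma adjusted p = 0.668). The transglutaminase Tgm2 differed by −0.32 (standard error 0.13), also without overlap, and the lysyl oxidase Lox by −0.32 (standard error 0.17) with overlap. Tgm2 differed by −0.19 without castrated sample 2, and Lox by −0.13 without sham sample 1 and −0.47 without sham sample 2.

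In the breakdown list 6 of 9 measured genes were lower, with 51.5% of all genes lower, and the list median was −0.12. Mmp14, a membrane-bound collagenase, read 7.11, 7.12 and 7.27 in castrated samples, against 7.77, 7.60 and 7.32 in sham samples, without overlap and with a difference of −0.40 (standard error 0.13, limma adjusted p = 0.658). Mmp8, the neutrophil collagenase, differed by −0.46 at a mean below the all-gene median, and by −0.30 without castrated sample 1. Collagen receptors were higher for 5 of 9 genes, with a median of 0.0060, and the integrin chains Itga1 and Itga2 differed by 0.25 and 0.23 with overlapping groups, Itga2 by 0.16 without castrated sample 2. Of 15 genes of TGF-beta signalling, a main inducer of collagen genes, 6 were higher and 9 lower, with a median of −0.033. All 15 had means at or above the all-gene median. Of all genes in that range 59.2% were lower, with a median of −0.030, so this list was close to that background. Ltbp1, which holds latent TGF-beta in the matrix, differed by −0.27 and Postn, the matrix protein periostin, by 0.27, both without overlap. Skil, at −0.21, did not overlap either.

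**Figure D5:**
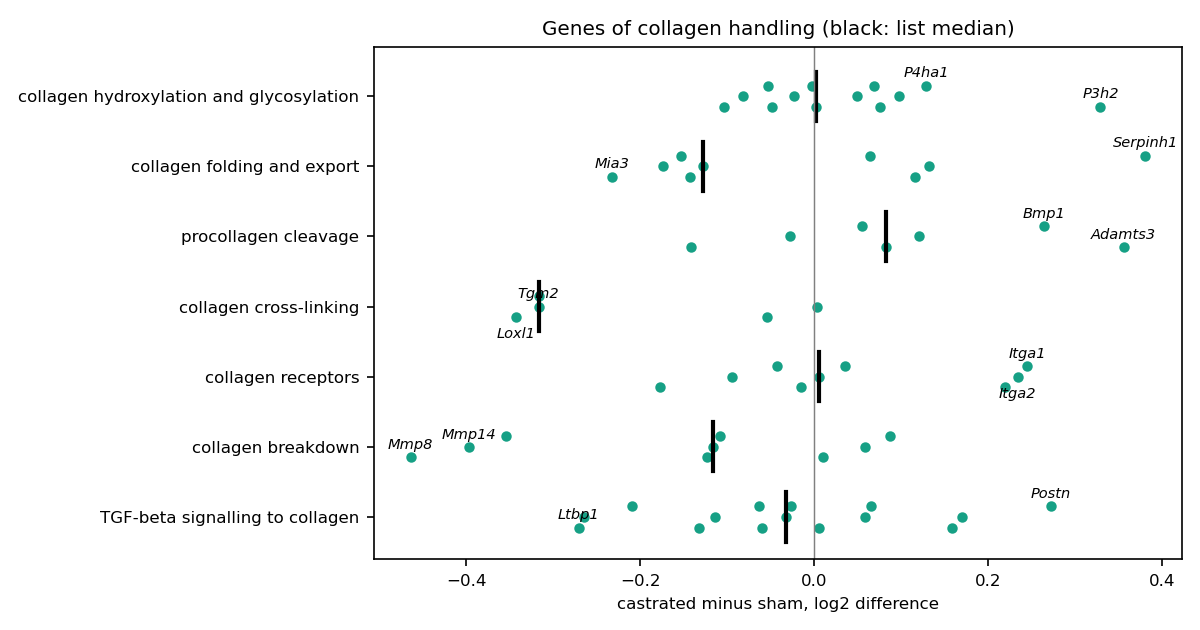
Log2 difference, castrated minus sham, of each measured gene in 7 lists of collagen handling, with the list median in black and the 2 genes of smallest p in each list named. Medians run from −0.32 for cross-linking to 0.083 for procollagen cleavage.

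Chains that assemble into the same molecule were compared within arrays, where 3 against 3 samples cannot reach an exact permutation p below 0.1. The difference of Col1a1 exceeded that of Col1a2 by 0.26, with gaps of 0.49, 0.47 and 0.22 in castrated samples, against 0.30, 0.031 and 0.061 in sham samples. Those gaps overlapped between groups (exact permutation test, two-sided p = 0.2, Benjamini-Hochberg adjusted p = 0.467). The second probe set of Col1a2 gave a larger difference than Col1a1, so the order of the 2 chains depends on the probe set. Between Col5a1 and Col5a2 the differences were apart by 0.011, between Col4a1 and Col4a2 by −0.025, between Col6a1 and Col6a2 by 0.047 and between Col6a3 and Col6a2 by 0.18, with exact permutation p between 0.3 and 1.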

How the data were processed

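RNA from tibialis anterior of 3 castrated and 3 sham mice was measured on Affymetrix arrays. The deposited log2 values per probe set were normalized by the authors. The submitters' processing notes name Partek only, so how background was corrected and arrays were normalized is unknown here. The number of arrays limits the precision.

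Of 41345 probe sets, 23521 name 1 gene, and 23328 of these were updated through Entrez identifiers in a GRCm38.p6 gene table. The probe set of highest mean represented each of 22180 genes, with no filter on dim genes. All genes were fitted with limma 3.58.1 in R 4.3.3, castrated minus sham, with no covariate, Benjamini-Hochberg adjustment and a threshold of 0.05. With 200 genes changed in simulated data for castrated against sham over 22180 genes, 10% were recovered at a change of 0.5 and 82% at 1, with 12 false calls. The simulated samples varied independently, with spreads drawn from the limma fit over all genes. These shares do not carry over to noisier genes such as Col1a1, whose within-group SD was 0.55 against a median of 0.145 over all genes. Samples were grouped by title, and p-values reflect only how these 6 samples vary, which may be partly technical.

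The collagen genes, lists and tests were chosen with earlier results of these data known. Values by sample are given for members whose groups do not overlap, the 2 largest differences of each class, and 16 fixed members. Of each list of collagen handling the 2 genes of smallest p are given. Any other gene was named after its values were seen. Over all genes same-numbered samples hardly deviated together (correlations 0.033 to 0.076). Among collagen genes sample 1 was highest of its group for 68.2% (castrated) and 63.6% (sham), against 34.0% and 32.1% of all genes. Sample 3 was lowest for 47.7% and 77.3%, against 31.2% and 36.0%. Whether the number marks anything shared is unknown here. Promoter sequences are from RefSeq.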

Additional observations from a re-analysis of the deposited data

How the results depend on the processing

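The count of 0 collagen genes past the threshold held under all alternatives run, with a smallest adjusted p between 0.107 (genes in the dimmer part, under the 50th percentile, left out) and 0.722 (without castrated sample 2). With the replicate number as a block it was 0.294, and 0 collagen genes passed, while 7 collagen genes had an unadjusted limma p under 0.05, against 4 without the block, and over all genes 1676 did, against 1581. The count over all genes, 3, was 9 and 16 with genes under the 25th and 50th percentile left out, where fewer genes are tested, 10 with a trended robust variance prior, and 0 without both sham sample 3 and castrated sample 1, an alternative chosen after seeing the data, where 1455 genes and 1 collagen gene had an unadjusted limma p under 0.05. That last alternative drops the arrays most often lowest in sham and highest in castrated muscle among collagen genes. Smaller collagen differences were therefore built into it. Under it the median of the 18 genes of other classes was 0.0032, the fibrillar median 0.034 and the FACIT median 0.027. Col1a1 was 0.37 and Col1a2 0.20, both with the same direction, while Col3a1 was −0.063, Col5a1 −0.10, Col4a1 −0.020, Col4a2 −0.023 and Col6a2 −0.11. With 1 sample left out, differences ran from −0.065 to 0.16 for Col5a1, −0.011 to 0.16 for Col4a1, −0.017 to 0.26 for Col6a2, −0.12 to 0.066 for Col13a1 and −0.13 to 0.015 for Col25a1, and the other probe set of Col5a1 gave −0.057. The cause was not tested. Of 291 values of 21 named genes under alternatives, 280 kept their direction and 11, in 7 genes, did not. The filters on dim genes used the mean over all 6 samples, so a gene high in 1 group could pass through that group. These filters, the replicate block and the variance prior cannot change a gene's difference. Neither can the mean of probe sets for a gene with a single probe set. Many of the 280 therefore repeat the main value, and the count does not measure how stable the directions are. Centred on array medians, the basement membrane median was −0.0013. The number of collagen genes higher in castrated muscle was 32 after quantile normalization or centring, and 29 to 36 with 1 sample left out.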
